A study of Mus musculus with 40 samples.

Results

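The copies described here are mouse endogenous retrovirus copies of the IAPEY, IAP1, IAP-d and IAPA groups, read in the RNA of a serially transplanted melanoma. A copy was taken from the deposited table of repeat copies where any part of its repeat name starts with IAPEY, IAPEy, IAP1-MM, IAP-d or IAPA_MM and no part starts with IAPEz or IAPLTR. The rule used names and no signal, but it was chosen with earlier results of these data known. It took 1174 of 835636 copies. Of the 1174, 896 had an IAPEY name, 155 an IAP1-MM name, 98 an IAP-d name and 25 an IAPA_MM name. The 4250 copies with an IAPEz or IAPLTR name, the other large IAP group of the table, serve as a comparison.

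The tumours all came from YUMM1.7, a mouse melanoma cell line, so every group is a descendant of 1 line. The 40 libraries hold polyA RNA from cells in culture. They were the untransplanted line (called YUMM1.7 cells, 3 libraries) and cells of dissociated tumours from passages labelled F0 (4 tumours), F1 (4), F2 (5), N2.1 (5), N2.2 (3), N2.3 (3), Balb/c-1 (4), Balb/c-2 (3) and CBA (3), plus a repeat set of the same Balb/c-2 tumours labelled rep2 (3). The labels give tumours of a passage letters, which name the libraries below, and no other treatment. The labels state neither the strain, genotype and age of the mice in the F and N2 passages nor whether each tumour came from its own mouse or each YUMM1.7 library from its own culture, so p-values measure the spread between these samples, which may be partly technical. The cells spent 1 to 3 passages in culture after dissociation. The table holds repeat copies only, so neither melanoma markers nor markers of remaining host cells could be checked in it. Sequencing ran in 2 batches, and F2 cells were sequenced again with the second, but the labels do not say which library belongs to which batch. The library names of the repeat set and of CBA (6 libraries) carry a sequencing run and those of the other 34 do not. By that mark CBA against the repeat set stays on one side, while CBA against YUMM1.7 cells and the repeat set against the first Balb/c-2 set cross it, and in the first of these the passage and the sequencing run cannot be told apart.

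IAP elements are endogenous retroviruses of the ERVK class. A complete element has an internal part with retroviral genes between 2 long terminal repeats (LTRs), and the LTR holds its promoter. In most adult mouse cells these copies are kept silent by DNA methylation and repressive histone marks. IAPEY names belong to a lineage first known from copies on the Y chromosome. The internal part is written with the ending int, as in IAPEY4_I-int, and a name with both parts joined marks a copy that holds both.

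Some long IAPEY4 copies carry annotated noncoding transcripts, which have 2 exons, the first at one end of the element and the last at the other. First exons of 4 such GENCODE transcripts on GRCm38 (mm10) are shown to give the annotated transcribed start of such copies. They are those of Gm47547 (chr14:41053653-41053853, plus strand), Gm49083 (chr14:43812242-43812383, minus strand, 142 bases), Gm49708 (chr16:90349421-90349642, minus strand, 222 bases) and AC132253.9 (chr19:9836714-9836897, minus strand, 184 bases). Capitals mark a run of 18 or 19 bases from TGGTGC to CGGGA, the form of the site at which a phenylalanine transfer RNA primes reverse transcription of IAP elements. The run was found by its letters and was not tested as a working site. The Gm47547 and AC132253.9 exons lie wholly in their copies. Only 83 bases of the Gm49083 exon and 126 of the Gm49708 exon lie in theirs, and the run of Gm49083 lies outside its copy. The 4 were 94.4% to 99.5% identical to each other. The fifth such first exon compared, that of Gm8113, whose copy had a higher mean signal (68.9) than that of Gm49083 (47.5), was less alike, at 88.3% to 91.0% identity to these 4.
Gm47547: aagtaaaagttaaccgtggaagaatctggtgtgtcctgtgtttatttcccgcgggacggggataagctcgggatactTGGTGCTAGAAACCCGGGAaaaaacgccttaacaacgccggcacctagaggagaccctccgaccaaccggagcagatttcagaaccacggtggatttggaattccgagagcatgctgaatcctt
Gm49083: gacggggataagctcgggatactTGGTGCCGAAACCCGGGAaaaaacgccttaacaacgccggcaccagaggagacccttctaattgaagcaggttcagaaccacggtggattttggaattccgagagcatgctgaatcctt
Gm49708: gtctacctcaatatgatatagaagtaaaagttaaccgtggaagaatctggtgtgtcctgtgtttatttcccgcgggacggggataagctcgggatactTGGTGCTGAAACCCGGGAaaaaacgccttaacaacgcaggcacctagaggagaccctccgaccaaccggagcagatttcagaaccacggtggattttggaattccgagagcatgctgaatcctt
AC132253.9: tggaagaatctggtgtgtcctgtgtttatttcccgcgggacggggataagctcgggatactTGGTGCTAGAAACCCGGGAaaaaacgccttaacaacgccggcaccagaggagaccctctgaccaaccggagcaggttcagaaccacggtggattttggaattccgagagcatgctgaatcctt

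Upstream windows of 3 RefSeq transcripts (GRCm38.p6) are shown because they overlap the ends of 3 long IAPEY4 copies, and they are the 250 bases before the annotated start. Gm52720 (chr4:3200300-3200549, minus strand) starts in the copy that led the CBA tumours, and 231 of its bases lie in that copy. Gm52042 (chr13:25007466-25007715, plus strand) starts in a copy within an intron of Mrs2 that had a mean signal of 10.8. The window of 6720473M11Rik (chr16:3633189-3633438, minus strand) reaches 129 bases into a copy that was at or near 0 in the latest passages. Capitals mark matches, on either strand, of the 5 motifs searched, none of which overlapped another. Among the same upstream windows of 32851 RefSeq promoters, 12.4% held TATAAA, 4.18% held TATTTAA, 33.9% held CCAAT, 6.47% held TGACGT and 12.3% held CATGTG. The first 2 windows each held 1 TATTTAA and 1 TGACGT match and were 99.4% identical over 165 aligned bases, and the last held 1 CCAAT match. A match describes letters only.
Gm52720: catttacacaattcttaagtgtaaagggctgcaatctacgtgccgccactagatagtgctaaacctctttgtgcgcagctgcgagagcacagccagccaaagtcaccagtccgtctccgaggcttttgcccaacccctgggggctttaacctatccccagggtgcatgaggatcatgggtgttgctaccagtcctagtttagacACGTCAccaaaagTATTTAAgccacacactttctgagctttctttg
Gm52042: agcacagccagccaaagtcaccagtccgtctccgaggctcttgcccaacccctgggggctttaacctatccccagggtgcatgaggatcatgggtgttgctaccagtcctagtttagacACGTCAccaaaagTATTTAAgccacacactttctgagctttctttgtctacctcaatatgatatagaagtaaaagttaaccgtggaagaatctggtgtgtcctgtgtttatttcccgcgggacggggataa
6720473M11Rik: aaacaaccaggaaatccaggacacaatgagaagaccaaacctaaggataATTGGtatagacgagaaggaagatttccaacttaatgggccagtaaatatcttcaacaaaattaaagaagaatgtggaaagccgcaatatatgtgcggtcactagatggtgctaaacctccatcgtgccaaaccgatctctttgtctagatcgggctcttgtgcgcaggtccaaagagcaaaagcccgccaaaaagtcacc

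Another kind of member lies inside a coding gene. The IAPEY5_I-int copy at chr5:114822402-114822901 covers the end of the coding sequence of 1500011B03Rik, and the coding part of that last exon (chr5:114822442-114822725, minus strand, 284 bases, GENCODE) is shown because this copy had the lowest fold change among the members called in CBA tumours against the line.
1500011B03Rik: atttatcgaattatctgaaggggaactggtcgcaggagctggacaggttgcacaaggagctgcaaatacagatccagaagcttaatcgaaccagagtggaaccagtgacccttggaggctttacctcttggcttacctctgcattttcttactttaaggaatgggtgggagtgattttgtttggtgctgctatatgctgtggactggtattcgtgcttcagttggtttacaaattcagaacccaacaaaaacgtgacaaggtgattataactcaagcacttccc

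The signal values are the authors' scaled read counts per copy, and whole reads could be recovered from them: a library held 1280522 to 2976730 reads in all repeat copies, with a median of 1867480, and 1 read was worth 0.659 to 1.51 units of signal. Tests were run on copies with a mean signal of at least 5, which 33215 copies of the table reached. Among the IAPEY and IAP1 copies, 1164 had at least 1 read somewhere, and 57 (4.86%) were tested, against 7.06% of the IAPEz and IAPLTR copies and 3.97% of all copies. The tested copies held 93.6% of the summed signal of all members, so the rest of the account is about them unless it says otherwise. Just above the limit stood copies with means of 5.05 and 5.12, and just below it copies with means of 4.84 and 4.89.

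The signal sat in few copies. The copy with the highest mean held 27.4% of the members' signal, the 3 highest 58.3% and the 8 highest 73.2%. By name, IAPEY copies held 72.9% and IAP1-MM copies 25.6%. The lineage that stood out was IAPEY4: 30 copies with an IAPEY4_I-int name were at least 7000 bases long, 14 of them (46.7%) were tested, and these 30 copies held 59.7% of the signal, while none of the 69 shorter ones was tested. Length alone did not go with signal in this way, since of 161 other members of at least 4000 bases 4 were tested. The cut at 7000 bases was not a planned list and was made with earlier results of these data known. By place, 873 members were intergenic (22 tested), 233 lay in introns (12), 48 in noncoding exons (14), 16 in untranslated regions (6) and 4 in coding exons (3). Tested copies in exons held 60.1% of the members' signal, and their reads cannot be told apart from those of the host transcripts. No copy of the IAPA_MM lineage was tested, and none of the 131 members on the Y chromosome, whose summed signal ranged from 0 to 37.1 per library.

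The members together had more signal in the later passages. Their summed signal averaged 2619 ± 65.3 in YUMM1.7 cells (SD, n = 3), 3331 ± 452 in F0 tumours, 3474 ± 367 in F1 tumours and 3495 ± 738 in F2 tumours. The N2.1 tumours averaged 6114 ± 847, the N2.2 tumours 6049 ± 1276 and the N2.3 tumours 4952 ± 438. Sums were 7170 ± 1066 for Balb/c-1, 8236 ± 1228 for Balb/c-2, 7957 ± 1645 for the repeat set and 5696 ± 839.8 for CBA. Every library from N2.1 on (4587 or more) lay above every library before it (4359 or less). The members' share of all repeat signal was 0.144% in the lowest library and 0.513% in the highest. The shares did not split in this way. F2 A had 0.253%, above N2.3 B (0.237%), CBA C (0.241%), N2.2 B (0.243%) and N2.3 A (0.251%). The separation of the sums rested on the 3 leading copies. Without them the N2.1 sums ran between 1270 and 3445 and the F2 sums between 1326 and 2003, so that the groups overlapped and the lowest N2.1 library lay below every YUMM1.7 library (1349 or more). CBA and YUMM1.7 cells stayed apart without them, at 2560 ± 85.9 in CBA tumours and 1503 ± 243 in YUMM1.7 cells. In bulk RNA of this kind, fewer cells of a type and less RNA per cell cannot be told apart. The share of the table's signal in intronic copies, a sign of unspliced RNA, also moved: it was 24.8% ± 2.28 in N2.1 and 18.9% ± 4.32 in F2, and 25.9% ± 1.38 in CBA and 18.2% ± 1.87 in YUMM1.7 cells.

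**Figure D1:**
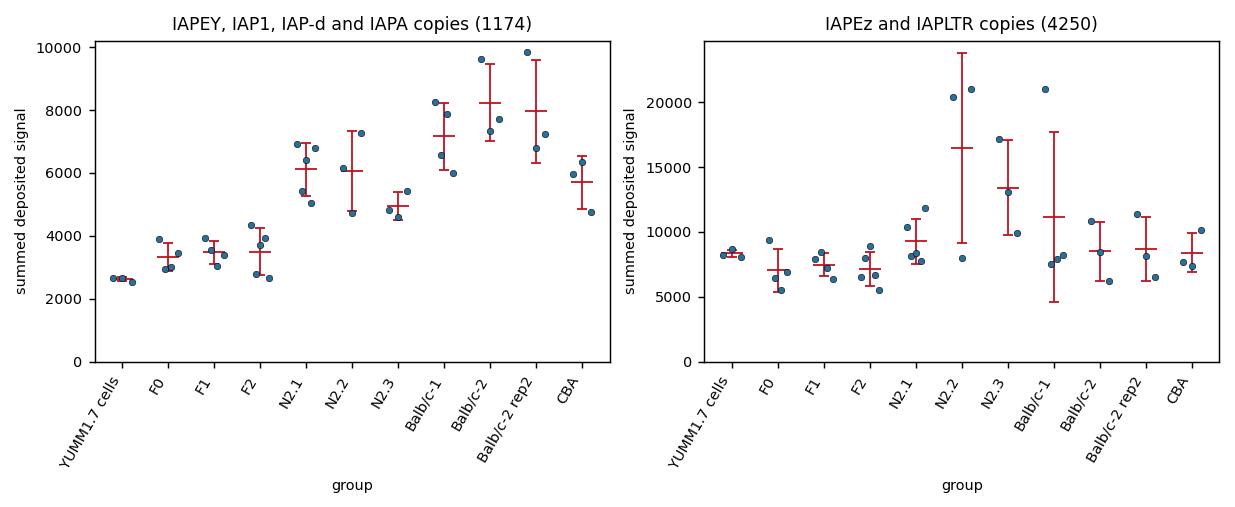
Summed deposited signal per library (points) with the group mean ± SD (red), for the 1174 IAPEY, IAP1, IAP-d and IAPA copies on the left and the 4250 IAPEz and IAPLTR copies on the right. On the left every library from N2.1 on lies above the highest earlier library (4359); on the right groups overlap, with single libraries up to 21008.

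Which copy led changed along the passages. In YUMM1.7 cells, F0, F1 and F2 the highest mean belonged to an IAP1-MM_I-int copy of 453 bases at chr13:111487909-111488361, in the 5′ untranslated region of Gpbp1, which encodes a transcription factor that binds GC-rich promoters. All 453 bases lie in that region, so reads of this copy and of Gpbp1 mRNA cannot be told apart. From N2.1 to the Balb/c-2 repeat set the leader was an IAPEY4_I-int copy of 8247 bases at chr6:3333361-3341607, in exons of the noncoding genes Gm20559, Gm43197 and Gm43198. In CBA tumours it was the intergenic IAPEY4 copy of 8319 bases at chr4:3192212-3200530. Per kilobase, the Gpbp1 copy had a mean level of 2049 units over all libraries, the chromosome 6 copy 175 and the chromosome 4 copy 84.2. The other members among the highest 8 were IAPEY4 copies at chr8:72024783-72033082 (mean signal 222), chr7:27933746-27942065 (157), chr16:90341888-90349546 in exons of Gm49708 and Gm49709 (145) and chr14:41053402-41061665 in exons of Gm47547 (116), and an IAPEY_LTR copy of 374 bases at chr11:83217934-83218307 (140.5).

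The chromosome 6 copy had 112, 525 and 556 units of signal in the YUMM1.7 libraries, 1151, 278, 192 and 352 in F0, 133, 764, 169 and 189.9 in F1, and 684, 329, 745, 1061 and 214 in F2. The later tumours had 1828, 2708, 867, 1109 and 2125 in N2.1, 1549.7, 884 and 1749.7 in N2.2, and 1074, 1339 and 1294 in N2.3. It reached 3723, 2579, 3198 and 1099.8 in the Balb/c-1 tumours, 4073, 2963 and 2989 in the Balb/c-2 tumours, 4124, 2767 and 2894 in the repeat set, and stood at 666, 1521 and 1029 in CBA. Early groups were mixed. F0 and F1 each had 1 tumour well above the others, and the line ran between 112 and 556. F2 ran between 214 and 1061 and overlapped N2.1, whose lowest tumour had 867. Balb/c-2 was high in every tumour, and CBA overlapped neither Balb/c-2 set.

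The chromosome 4 copy was low in the line, with 0.968, 18.2 and 7.72 units, and had 93.2, 105, 0 and 143 in F0. It had 280.2, 516, 250.3 and 307 in F1, 1017, 245, 106, 407 and 389 in F2, and 1461, 410.2, 1024, 871 and 716 in N2.1. It had 1136, 398 and 1767.5 in N2.2 and 297, 276 and 563 in N2.3, whose mean of 378 was below those of N2.1 (896) and F2 (433). The Balb/c-1 tumours lay between 907 and 974, the Balb/c-2 tumours between 936 and 1664 and the repeat set between 862 and 1936, and CBA tumours had 1758, 1654 and 501. Values between the line and F1 did not overlap, and F2 overlapped both F0 and N2.1. The Gpbp1 copy moved far less: its group means ran between 709 in YUMM1.7 cells and 1351 in Balb/c-2.

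**Figure D2:**
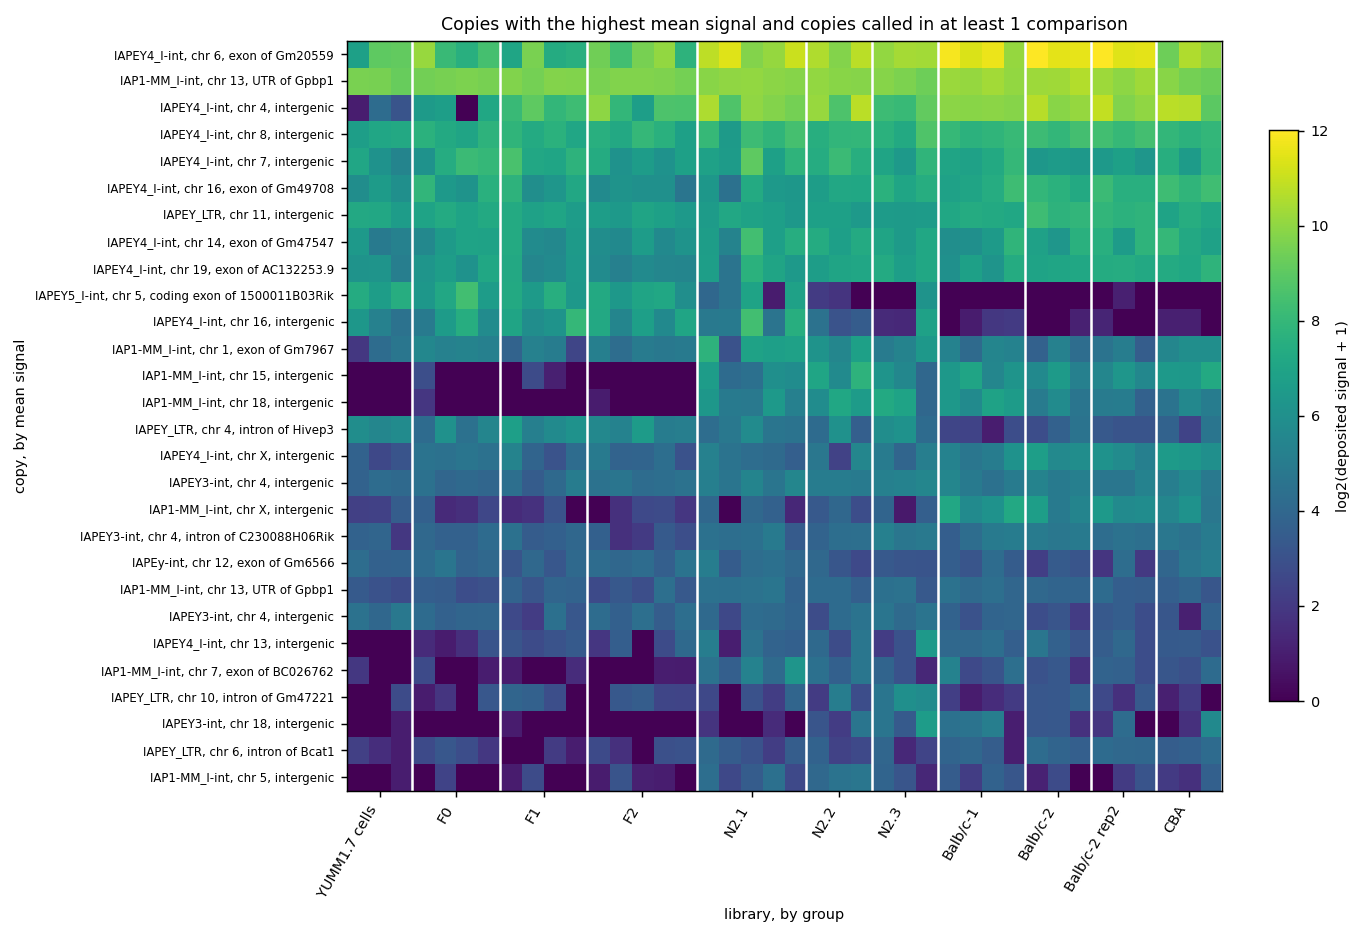
Log2 of the deposited signal + 1 (colour) in 40 libraries (columns, by group) for the copies with the highest mean signal and those called in at least 1 comparison (rows, by mean). IAP1-MM copies on chromosomes 15 and 18 are at or near 0 up to F2 and have signal from N2.1 on, and the 1500011B03Rik copy and the chromosome 16 copy starting at 3624986 show the reverse by Balb/c-1.

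Early passages were compared first. F0 tumours against YUMM1.7 cells asked what growth in mice changed in the line, and no tested member was called by limma at an adjusted p under 0.05, as none was among all copies (0%). At an unadjusted p under 0.05 there were 6 members, and edgeR and DESeq2 called 0. Counts at an unadjusted p, here and below, stand without the matching count over all copies or subfamilies. They do not show whether the members differ from the rest. The same holds for counts by edgeR or DESeq2 or under other settings where no count over all copies or subfamilies is printed. The 14 long IAPEY4 copies had a median log2 difference of 0.76 with 12 above 0, against a median of 0.13 over all tested copies, and none of the 14 passed the test. F2 against F0 also gave no call (9 at an unadjusted p under 0.05, 0 by edgeR and 1 by DESeq2), where 0.0391% of all copies were called. The copy nearest to a call was the chromosome 4 copy, with a mean of 433 ± 348 in F2 and 85.3 ± 60.7 in F0 (log2 fold change 3.28, limma adjusted p = 0.113), and it passed with TMM scaling (3.46, limma adjusted p = 0.0489).

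N2.1 against F2 was the step at which most copies of the table changed, and 7 tested members rose and none fell. That is 12.3% of the members, against 9.7% of all tested copies (7.34% higher and 2.36% lower). Of the 7, 5 were IAP1-MM copies among the 16 tested, whose median log2 fold change was 1.24. The 14 long IAPEY4 copies gave 1 call and a median of 0.42, the 23 other IAPEY copies 1 call and a median of 0.04, and the 4 IAP-d copies none. None of the 13 tested copies that are an LTR alone was called. The scale matters here, because the median of all tested copies was itself 0.26 and moved to -0.01 under TMM scaling, which called 4 members higher and 1 lower; over all copies 2439 were higher and 783 lower on the deposited scale, and 1146 higher and 1667 lower under TMM.

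At this step 3 IAP1-MM copies had clear signal in N2.1 and few or no reads in F2. The intergenic copy at chr15:19647741-19650047 had 98.2, 17.4, 20.8, 61.8 and 57.2 units in N2.1 and 0 in all 5 F2 libraries. The rise was at least 17.3-fold against a floor of 3 reads per library (log2 fold change 5.42, SE 0.52, limma adjusted p = 1.38e-09). It stayed on in every later library, between 15.1 and 219, while earlier libraries had at most 6.40.

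The intergenic copy at chr18:18762561-18766160 had 79.8, 29.7, 28.1, 85.7 and 36.1 units in N2.1 and 0.911, 0, 0, 0 and 0 in F2 (log2 fold change 5.37, SE 0.46, limma adjusted p = 5.28e-11). The groups did not overlap, and later libraries had 12.1 to 157. The IAP1-MM copy of 6256 bases at chr7:26006181-26012436, in exons of the noncoding gene BC026762, averaged 32.7 ± 25.9 in N2.1 and 0.373 ± 0.511 in F2 (log2 fold change 4.39, SE 0.58, limma adjusted p = 1.48e-06). Later libraries had between 1.51 (N2.3 C) and 38.7, and earlier ones at most 5.48, so single late libraries were as low as early ones. These 3 calls held under every alternative setting and every left-out library.

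Tested repeats around the chromosome 18 and 15 copies were called higher as well. Within 100 kb of the chromosome 18 copy 20 other copies were tested and all 20 were called higher in N2.1. For example, an L1Lx_IV copy at chr18:18796568-18797850 averaged 73.5 in N2.1 and 0.783 in F2. Around the chromosome 15 copy 3 of 3 were called higher, and no other copy near the chromosome 7 copy was tested.

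The 4 remaining calls were smaller and the groups overlapped. The chromosome 6 copy averaged 1727 ± 750.2 in N2.1 and 607 ± 340.2 in F2 (SD, n = 5 each; log2 fold change 1.61, SE 0.44, limma adjusted p = 0.0157). That call was lost with TMM scaling (1.31, limma adjusted p = 0.0577), with edgeR and DESeq2, with the intron share as a covariate, and without F2 B (limma adjusted p = 0.0603) or F2 E (limma adjusted p = 0.0581). The IAP1-MM copy at chr5:138331494-138335185 averaged 12.1 ± 7.38 in N2.1 and 2.11 ± 3.12 in F2 (log2 fold change 2.29, limma adjusted p = 0.0216). It was lost with TMM scaling (limma adjusted p = 0.0502), with no filter, with edgeR and with the intron share as a covariate, and without F2 E (limma adjusted p = 0.0577), N2.1 A (limma adjusted p = 0.0636) or N2.1 D (limma adjusted p = 0.0700). An IAPEY3-int copy in an intron of C230088H06Rik, at chr4:147181403-147181938, averaged 20.2 ± 7.19 in N2.1 and 6.62 ± 4.11 in F2 (log2 fold change 1.59, limma adjusted p = 0.00279), a call lost with no filter (limma adjusted p = 0.214). A 118-base copy in another 5′ exon of Gpbp1, at chr13:111489714-111489831, averaged 20.2 ± 4.44 in N2.1 and 9.94 ± 5.88 in F2 (log2 fold change 1.06, limma adjusted p = 0.0235). Its call was lost with TMM scaling (limma adjusted p = 0.135), no filter, the compared groups only, edgeR and DESeq2, and without F2 A, F2 B, F2 C or N2.1 D (limma adjusted p between 0.0513 and 0.0711).

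**Figure D3:**
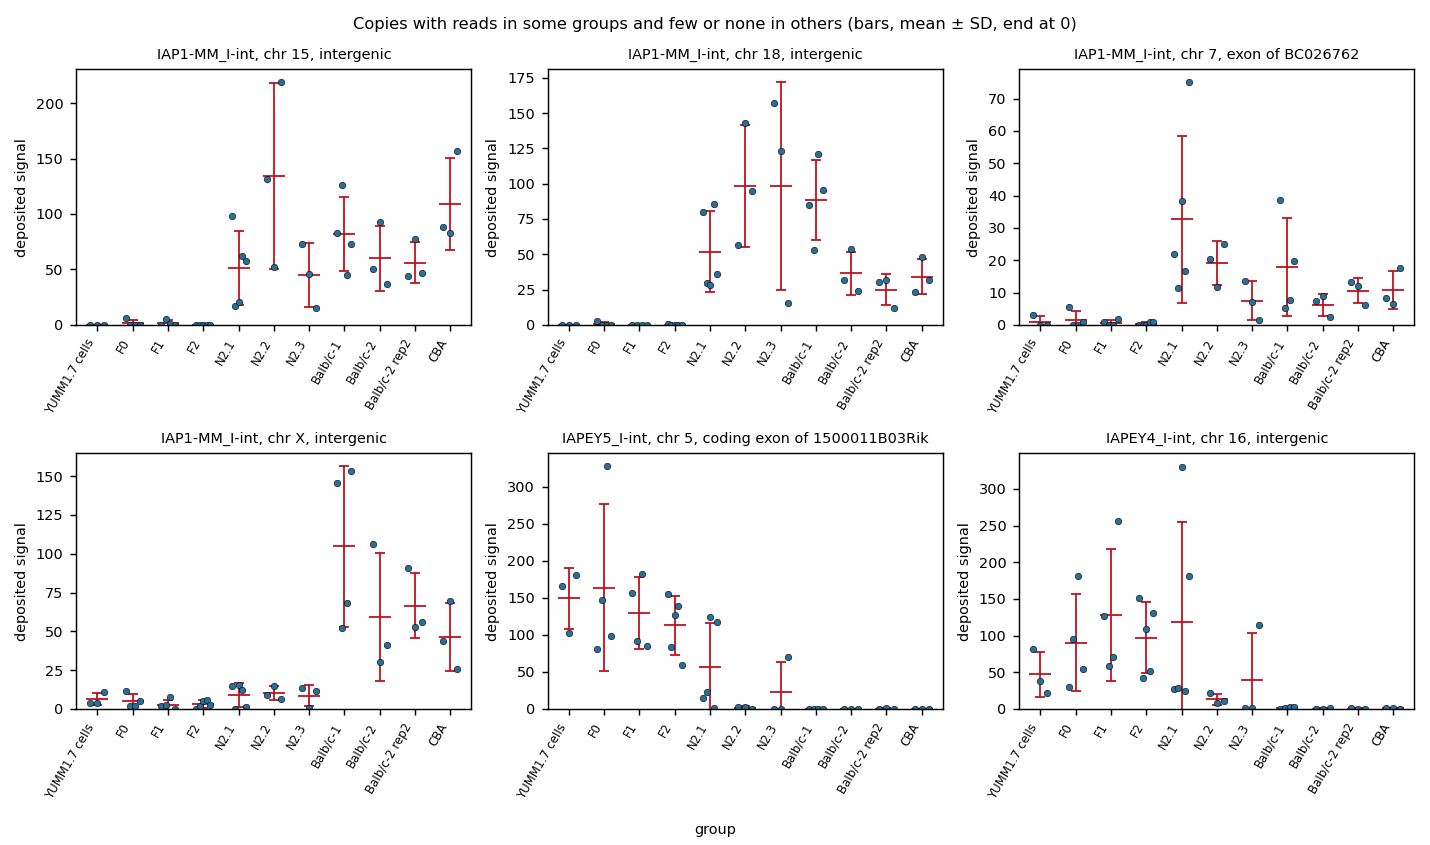
Deposited signal per library (points) and group mean ± SD (red, bars end at 0) for 6 copies. The chromosome 15 and 18 copies have signal in every library from N2.1 on, and the chromosome 7 copy in most (with 1.51 in N2.3 C and 2.29 in Balb/c-2 C). The chromosome X copy has a mean of at least 5 in 9 of the 11 groups, with the highest in Balb/c-1 (104.7) and the lowest in F1 (2.87). The chromosome 5 and 16 copies are at or near 0 from Balb/c-1 on.

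N2.3 against N2.1 gave 1 member call, a rise (1.4% of all copies were called). The IAPEY3-int copy at chr18:3044510-3046546 had 24.6, 9.47 and 98.4 units in N2.3 and 2.52, 0, 0, 1.77 and 0 in N2.1. The groups did not overlap (log2 fold change 4.24, SE 0.91, limma adjusted p = 0.00953), but without N2.3 C the adjusted p was 0.0932. In CBA this copy was again uneven, with 0, 2.17 and 50.4.

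Balb/c-1 against N2.3 gave 2 higher and 2 lower members (2.2% of all copies were called). The IAP1-MM copy at chrX:9328933-9332825 had 145.6, 52.1, 68.2 and 153 units in Balb/c-1 and 13.6, 0.789 and 11.4 in N2.3. It rose by 3.80 on the log2 scale (SE 0.79, limma adjusted p = 0.00553), and without N2.3 B the adjusted p was 0.0752. It remained higher than in any N2 library in every library after Balb/c-1. The Gpbp1 copy of 453 bases averaged 1159.6 ± 93.3 in Balb/c-1 and 791 ± 135 in N2.3 (log2 fold change 0.56, limma adjusted p = 0.0294). Its call was lost with the intron share as a covariate, with the compared groups only and without any of Balb/c-1 A, Balb/c-1 C, N2.3 B or N2.3 C (limma adjusted p between 0.0599 and 0.190).

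The 2 copies that fell lie in introns. The IAPEY_LTR copy joined to an IAPEy-int part at chr4:119926434-119930212, in Hivep3, a zinc finger transcription factor gene, had 4.61, 4.41, 0.961 and 6.24 units in Balb/c-1 and 58.5, 68.6 and 17.4 in N2.3. The groups did not overlap (log2 fold change -3.22, SE 0.55, limma adjusted p = 0.000947), and the call was lost with the compared groups only (limma adjusted p = 0.0508). The IAPEY_LTR copy of 384 bases at chr10:103567110-103567493, in Gm47221, averaged 2.40 ± 1.25 in Balb/c-1 and 47.1 ± 19.8 in N2.3 (log2 fold change -3.80, limma adjusted p = 0.0169). The call was lost without N2.3 B (limma adjusted p = 0.0658) or N2.3 C (limma adjusted p = 0.0752).

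Balb/c-2 against Balb/c-1 gave no member call by limma, edgeR or DESeq2, with 9 members at an unadjusted p under 0.05 by limma, and 0% of all copies were called. The repeat libraries of the Balb/c-2 tumours against the first set also gave none by any of the 3 tools, with 3 members at an unadjusted p under 0.05, where 0.232% of all copies were called. For the 8 leading copies in 3 tumours each, the ratio of the repeat to the first library ranged from 0.770 to 1.65 with a median of 0.996 over 24 pairs. The leading chromosome 6 copy, for example, had 4124, 2767 and 2894 units in repeat libraries A, B and C, and 4073, 2963 and 2989 in the first ones.

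CBA against the Balb/c-2 repeat set gave 1 higher and 1 lower member, while 5.93% of all copies were called. An IAPEy-int copy of 849 bases in an exon of Gm6566, at chr12:87149435-87150283, had 14.6, 25.0 and 32.8 units in CBA and 2.66, 18.8 and 3.03 in the repeat set (log2 fold change 1.85, limma adjusted p = 0.0191). The groups overlapped, and the call was lost with no filter, the compared groups only, edgeR, DESeq2 and the intron covariate, and without CBA B, CBA C, repeat A or repeat C (limma adjusted p between 0.0571 and 0.136). The Gpbp1 copy had 931, 720.4 and 628 units in CBA and 1223, 1012 and 1257 in the repeat set, with no overlap (log2 fold change -0.63, limma adjusted p = 0.0114). It was lost with the intron covariate and the compared groups only, and without repeat C (limma adjusted p = 0.0703) or CBA C (limma adjusted p = 0.102). TMM scaling, under which the median of all copies was 0.01 and not 0.20, gave 1 higher and 3 lower members, the leading chromosome 6 copy (-1.88, limma adjusted p = 0.0408) and the chromosome 11 IAPEY_LTR copy (-0.84, limma adjusted p = 0.0494) among the lower ones. The count over all copies under TMM is not given for this comparison, so the member count cannot be set against it.

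CBA against YUMM1.7 cells spans all passages. Of the 57 tested members 14 rose and 4 fell, which is 31.6% of them, against 10.4% of all tested copies (6.53% higher and 3.85% lower). The median log2 fold change of the members was 0.67 and that of all copies 0.23. Under TMM scaling the median of all copies was -0.01 and the members split into 10 higher and 5 lower; over all copies the split was 2168 higher and 1278 lower on the deposited scale and 1368 and 1984 under TMM. With the intron share as a covariate 7 members were higher and 2 lower. The count over all copies with that covariate is not given here, so this does not show whether the members differ from the rest. The ranges of the groups did not overlap for 28 of the 57 members, among them the 18 called. The matching count over all tested copies was not made, so this count does not show whether the members differ from other copies.

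Among the lists by name, the long IAPEY4 copies had most calls here: 6 of 14 rose and 1 fell. Their median log2 fold change was 1.36. This list was chosen with earlier results of these data known, and its 14 copies passed a filter on their mean over all groups. Its share of calls is therefore a description and not a test of the lineage. The intergenic chromosome 4 copy averaged 1304 ± 698 in CBA and 8.95 ± 8.67 in YUMM1.7 cells (SD, n = 3 each; log2 fold change 7.36, SE 0.94, limma adjusted p = 6.46e-07). The chromosome X copy at chrX:74872947-74880330 had 91.0, 81.5 and 62.1 units in CBA and 12.6, 5.05 and 7.72 in the line, with no overlap (3.13, SE 0.55, limma adjusted p = 0.000106). The copy in exons of Gm49708, whose first exon is shown above, averaged 289 ± 48.1 in CBA and 72.6 ± 21.1 in the line (2.00, SE 0.47, limma adjusted p = 0.00364).

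Of the long IAPEY4 copies 3 more rose, and their calls depended on settings or single libraries. The copy in Gm47547 averaged 176 ± 73.3 in CBA and 50.7 ± 30.1 in YUMM1.7 cells (log2 fold change 1.84, limma adjusted p = 0.0150), and its call was lost with edgeR and without CBA A (limma adjusted p = 0.0946), YUMM1.7 library 2 (limma adjusted p = 0.0934) or library 3 (limma adjusted p = 0.0634). The copy in AC132253.9 averaged 174 ± 40.7 in CBA and 59.4 ± 21.3 in the line (1.59, limma adjusted p = 0.0132), and was lost with no filter and the intron covariate, and without CBA C (limma adjusted p = 0.0714) or YUMM1.7 library 3 (limma adjusted p = 0.106). The intergenic copy at chr13:119661606-119669925 averaged 8.74 ± 1.49 in CBA and was 0 in all YUMM1.7 libraries, at least 2.97-fold higher (limma adjusted p = 0.00886), and its call was lost with a pseudocount of 5 (limma adjusted p = 0.0863), with no filter (limma adjusted p = 0.0768) and with the intron covariate (limma adjusted p = 0.198).

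Of the 16 tested IAP1-MM copies 5 rose and none fell, with a median log2 fold change of 1.65. The chromosome 15 copy had 87.9, 82.6 and 157 units in CBA and 0 in each YUMM1.7 library, at least 37.1-fold higher (log2 fold change 6.72, SE 0.67, limma adjusted p = 3.97e-09). The chromosome 18 copy had 23.0, 47.8 and 31.7 in CBA and 0 in each YUMM1.7 library, at least 11.6-fold higher (5.07, SE 0.59, limma adjusted p = 1.02e-07). The chromosome 7 copy in BC026762 (2.80, limma adjusted p = 0.0117), the chromosome X copy at chrX:9328933-9332825 (2.74, limma adjusted p = 0.0288) and the copy at chr1:98592195-98594581 in exons of Gm7967 (2.14, limma adjusted p = 0.0461) rose as well. The first was lost without YUMM1.7 library 2, library 3 or CBA C (limma adjusted p between 0.0635 and 0.0740), the second without YUMM1.7 library 1, library 2, CBA A or CBA B (0.0727 to 0.126), and the last without YUMM1.7 library 1, library 2 or any CBA library (0.0524 to 0.308). All 3 were lost with no filter (limma adjusted p between 0.108 and 0.149). The chromosome 7 copy was also lost with edgeR (edgeR adjusted p = 0.0644) and the intron covariate (limma adjusted p = 0.0799), and the chromosome X copy with a pseudocount of 0.5 (limma adjusted p = 0.0624). The Gm7967 copy was also lost with TMM scaling (limma adjusted p = 0.0762), the intron covariate (limma adjusted p = 0.406), the compared groups only (limma adjusted p = 0.0580), edgeR (adjusted p = 0.103) and DESeq2 (adjusted p = 0.0615).

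Among the 23 other IAPEY copies 3 rose and 3 fell. Those that rose were an IAPEY_LTR copy in an intron of Bcat1, the cytosolic branched-chain aminotransferase gene, at chr6:145018688-145019016 (13.3 ± 3.76 in CBA and 2.29 ± 1.47 in YUMM1.7 cells; log2 fold change 2.19, limma adjusted p = 0.0430) and the IAPEY3-int copies at chr4:147181403-147181938 and chr4:145830766-145831301, by 1.53 and 1.19 (limma adjusted p = 0.0259 and 0.0141). All 3 were lost with TMM scaling (limma adjusted p between 0.0649 and 0.0775), with no filter and with the intron covariate (0.126 to 0.346). The Bcat1 copy was also lost with a pseudocount of 0.5 and edgeR, both IAPEY3-int copies with the compared groups only, and the first of them with edgeR and DESeq2. The Bcat1 copy was also lost without YUMM1.7 library 2, library 3 or any CBA library (0.0718 to 0.159), the next without YUMM1.7 library 3, CBA A or CBA C (0.0659 to 0.257), and the last without YUMM1.7 library 1 or CBA B (0.0640 and 0.108). None of the 4 IAP-d copies was called, and 1 of 13 tested LTRs alone was, the Bcat1 copy. Of the 8 tested repeats within 100 kb of the Bcat1 copy 5 were higher, among them a B1F1 copy in the untranslated region of Bcat1 at chr6:144999710-144999854 with means of 727 in CBA and 348 in YUMM1.7 cells.

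Of the 4 copies that fell, 2 were at or near 0 in every CBA library. The IAPEY5_I-int copy in the last coding exon of 1500011B03Rik had 0 in all 3 CBA libraries and 165, 102 and 181 units in YUMM1.7 cells. It was at least 45.2-fold lower in CBA (log2 fold change -7.19, SE 1.01, limma adjusted p = 3.20e-06). Tumours of the N2 passages differed: N2.1 A, B and D had 15.1, 23.5 and 0.883 units and N2.1 C and E 124 and 118. It was near 0 in all N2.2 tumours, with 3.29, 2.51 and 0, and N2.3 A, B and C had 0, 0 and 70.4. After N2.3 it was 0 in every Balb/c-1, Balb/c-2 and CBA library, with 1.1 in repeat library B. The LTRIS2 copy next to it, in an exon of the same gene, at chr5:114821855-114822401, averaged 0 in CBA and 76.9 in YUMM1.7 cells, so reads of the copy and of the host transcript cannot be told apart.

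The intergenic IAPEY4 copy at chr16:3624986-3633317, whose upstream window is that of 6720473M11Rik, had 1.05, 1.09 and 0 units in CBA and 81.3, 38.4 and 22.2 in YUMM1.7 cells (log2 fold change -4.70, SE 0.92, limma adjusted p = 0.000505). It had 27.7, 28.6, 330.5, 23.9 and 181 in N2.1, 21.7, 7.53 and 10.4 in N2.2 and 1.7, 1.58 and 114 in N2.3. The libraries that were high for it in these groups, N2.1 C, N2.1 E and N2.3 C, were the same as for the 1500011B03Rik copy. The Hivep3 intron copy (13.8 ± 10.2 in CBA and 52.8 ± 7.55 in YUMM1.7 cells; log2 fold change -2.12, limma adjusted p = 0.0148) and an IAPEY3-int copy of 4608 bases at chr4:15912395-15917002 (7.45 ± 5.96 in CBA and 21.5 ± 5.98 in YUMM1.7 cells; -1.76, limma adjusted p = 0.0303) fell too. Both lost their call with the intron covariate (limma adjusted p = 0.152 and 0.0784), with no filter (limma adjusted p = 0.149 and 0.158) and without CBA B (limma adjusted p = 0.147 and 0.321). The second was also lost with the compared groups only (limma adjusted p = 0.132) and without YUMM1.7 library 1 (0.0734) or library 3 (0.113).

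**Figure D4:**
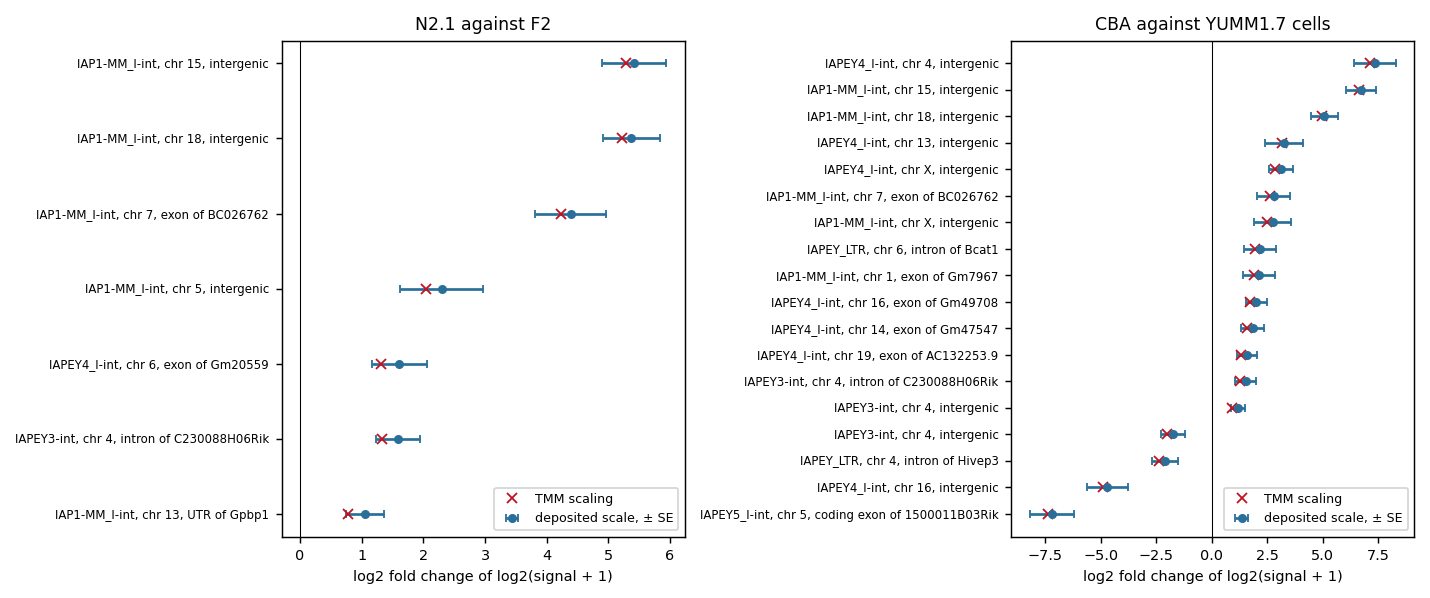
Log2 fold changes of log2(signal + 1) for the members called in N2.1 against F2 (left) and in CBA against YUMM1.7 cells (right), with SE bars, and the value under TMM scaling (crosses). Every cross lies at a lower value than its point, and no called copy changes sign.

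Over all comparisons 25 different members were called, 7 of them in at least 2 comparisons, with 32 calls in all. The groups in which single tested copies peaked were spread out: 11 of the 57 had their highest mean in N2.3, 9 in CBA and 2 to 6 in each other group. In 25 of the 57 the mean reached 5 in all 11 groups.

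Summed by repeat name, 14 member subfamilies were tested among 1004. In N2.1 against F2 6 were called (39.2% of all subfamilies were). IAPEY4_I-int rose to a sum of 3820 ± 584 in N2.1, against 1769 ± 590.4 in F2 (log2 fold change 1.16, SE 0.20, limma adjusted p = 6.07e-05), with no overlap, and the call held under every alternative. Most of that came from its 2 leading copies: without them the sum was 1197 ± 571 in N2.1, between 427 and 2008, and 729 ± 167 in F2, between 599 and 941, and the groups overlapped. IAP1-MM_I-int (0.64, limma adjusted p = 4.66e-06), IAP-d-int (0.79, limma adjusted p = 0.0165), IAPEY3-int (0.62, limma adjusted p = 0.00933) and IAP1-MM_LTR (1.15, limma adjusted p = 0.0489) rose, and IAPEY5_I-int fell (-1.75, limma adjusted p = 0.0458). With TMM scaling 1 was called higher and 1 lower, while the median of all subfamilies was 0.29 on the deposited scale and -0.0031 under TMM. The IAP1-MM_I-int call was lost with TMM (limma adjusted p = 0.0656). The IAP-d-int and IAPEY3-int calls were lost with TMM (limma adjusted p = 0.188 and 0.189), the intron covariate (limma adjusted p = 0.168 and 0.257), edgeR (edgeR adjusted p = 0.101 and 0.158) and DESeq2 (DESeq2 adjusted p = 0.0869 and 0.150). The IAP1-MM_LTR and IAPEY5_I-int calls were lost with a pseudocount of 0.5, no filter, the intron covariate, edgeR and DESeq2, the first also with TMM and the second also with the compared groups only. The IAP1-MM_LTR call was lost without each of 8 libraries (F2 A to D and N2.1 A, C, D and E) and the IAPEY5_I-int call without each of 7 (F2 A to D and N2.1 A, B and D). For IAPEY5_I-int the log2 fold change was -1.02 without N2.1 D (limma adjusted p = 0.220).

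In CBA against YUMM1.7 cells 4 of the 14 were called (27.9% of all). IAPEY4_I-int summed to 3869 ± 833 in CBA and 1075 ± 37.5 in YUMM1.7 cells (log2 fold change 1.82, SE 0.26, limma adjusted p = 5.95e-06). IAPEY3-int rose by 1.09 (limma adjusted p = 0.00132; not called with the intron covariate) and IAP1-MM_I-int by 0.58 (limma adjusted p = 0.000528; not called with TMM, edgeR or DESeq2). IAPEY5_I-int fell to 5.23 ± 3.63 in CBA, against 155 ± 39.7 in YUMM1.7 cells (-4.87, limma adjusted p = 0.000205). A single copy decides several of these sums: the 1500011B03Rik copy held 93.8% of IAPEY5_I-int, the Gpbp1 copy 69.6% of IAP1-MM_I-int, and 2 copies 65.9% of IAPEY4_I-int. Without those 2 copies the IAPEY4_I-int sum was 1492 ± 238 in CBA and 668 ± 252 in YUMM1.7 cells, and without the Gpbp1 copy the IAP1-MM_I-int sum was 474 ± 74.7 in CBA and 114 ± 35.3 in the line.

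In the other comparisons the subfamilies gave few calls. IAP1-MM_I-int rose in Balb/c-1 against N2.3 (0.39, limma adjusted p = 0.0388, where 3.19% of all were called) and fell in CBA against the repeat set (-0.34, limma adjusted p = 0.0479, where 14% of all were called). Both were lost with the intron covariate and the compared groups only, the second also with no filter and edgeR, and both without several single libraries, among them N2.3 C (limma adjusted p = 0.268) and CBA C (limma adjusted p = 0.222). For copies outside exons, without the Gpbp1 copies, neither was called and the second had the other sign (0.28; limma adjusted p = 0.876 and 0.617). None of the 14 was called in F0 against YUMM1.7 cells (0% of all; 2 at an unadjusted p under 0.05), F2 against F0 (0.199%; 1), N2.3 against N2.1 (0.498%; 2), Balb/c-2 against Balb/c-1 (0%; 1) or the repeat set against Balb/c-2 (2.99%; 0). Both edgeR and DESeq2 called 1 of the 14 in N2.3 against N2.1 and 0 in the other 4. IAPA_MM-int, IAPEY2_LTR, IAPEY3C_LTR, IAPEY3_LTR, IAPEY4_LTR, IAPEY5_LTR, IAPEY_LTR and IAPEy-int were called in no comparison by limma. Of these, IAPEY_LTR had the largest sums in CBA and in the line, 255.9 ± 36.5 in CBA and 219 ± 22.6 in YUMM1.7 cells, and IAPEY3C_LTR the smallest, 7.29 ± 2.00 in CBA and 5.54 ± 5.81 in YUMM1.7 cells. The IAPA_MM-int sum holds 76 copies that are not members because their name includes IAPLTR or IAPEz. Such copies are also in the sums of IAPEY3-int (13), IAPEY4_I-int (6) and IAPEY5_I-int (1).

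Signal of near-identical copies is uncertain, because no label states how reads that match several places were counted. Among the last exons of 5 transcripts of long IAPEY4 copies, 10 pairs were at most 98.9% identical, with a median of 98.1%, and 5.46% to 60.7% (median 21.2%) of the 100-base windows of the shorter exon occurred unchanged in the other. The kits are described as stranded or unstranded without saying which library had which, so sense and antisense RNA of a copy cannot be told apart.

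Below the test's limit, 14 members reached at least 20 units in a single library. An IAPA_MM-int copy at chr7:129566075-129566345 had 41.8 in N2.2 C, an IAP1-MM copy in an untranslated exon of 2010005H15Rik at chr16:36221269-36223022 had 35.0 in Balb/c-2 A, and an IAPA_MM-int copy at chr11:67130204-67130564 had 30.3 in N2.3 C. No test was made for them.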

How the data were processed

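PolyA RNA was sequenced by the submitters. The authors deposited a signal per repeat copy and library, on mm10, and the submitters' processing notes list HISAT2 2.0.5, StringTie 1.3.3b and featureCounts 1.5.0-p3. The deposited signal behaves as read counts divided by a factor per library: all values came out as whole reads within 0.1 read, so 1 read was worth 0.659 to 1.51 units. No label states how reads with several matches were counted. The table was fitted whole with limma 3.58.1 (R 4.3.3) on log2(signal + 1), with 1 mean per group over 11 groups, a trended prior and Benjamini-Hochberg adjustment over the 33215 copies with a mean signal of at least 5, or over 1004 subfamily sums; a call is an adjusted p under 0.05, two-sided. A log2 fold change on this scale understates changes of low copies. Recovered counts were tested with edgeR 4.0.16 and DESeq2 1.42.0 as alternatives, next to TMM scaling, pseudocounts of 0.5 and 5, no filter, a mean of at least 20, the intron share as a covariate, the compared groups only and leaving out each library. The fits were tested on simulated data. Copies were placed with GENCODE on GRCm38 (mm10) and bedtools 2.31.1. Named copies are the 6 highest and 6 lowest fold changes among calls of each comparison, the 8 highest means and the leader of each group; other called copies were named after their values were seen. The members and lists were chosen with earlier results of these data known. The repeat Balb/c-2 libraries come from the same 3 tumours per the labels, and their deviations correlated at 0.155, 0.251 and 0.255 with their own tumour and -0.195 to -0.0563 with others.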

Additional observations from a re-analysis of the deposited data

Results flagged for a closer look

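Among 165 groups of 4 or 5 libraries tested for 34 features, 13 held a library far from the others by Dixon's ratio. The ratio's chance rate of about 1 in 20 holds for normally distributed values and not for low counts, so the 13 cannot be set against it. Where all other libraries of a group had 0, a single read already gave the highest ratio. The chromosome 6 IAPEY4 copy had 1151 in F0 A, against 192 to 352 in the other F0 tumours, and 764 in F1 B, against 133 to 189.9. F0 A also had the only reads of its group in the IAP1-MM copies at chr15:19647741 (6.40) and chr18:18762561 (2.74). In the second, F2 A had 0.911, the worth of 1 read, with 0 in the other F2 libraries. The IAP1-MM copy at chr5:138331494 stood apart in tumour B of 3 passages, with 4.34 in F0 B, 5.63 in F1 B and 7.65 in F2 B, against at most 1.05 in the other libraries of those groups. The 118-base Gpbp1 copy had 7.88 in F1 B (others 13.2 to 13.9) and 20.1 in F2 D (others 5.47 to 9.09). The Hivep3 intron copy had 95.9 in F2 C (others 32.5 to 48.3) and 55.1 in N2.1 C (others 18.5 to 26.6). The IAPEY3-int copy at chr18:3044510 had 0.878 in F1 A, the worth of 1 read, and 0 in the other F1 libraries.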

How the results depend on the processing

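For single copies and subfamilies, 56 results under 925 alternatives kept their direction and side of the threshold in 749 cases, lost the call in 172, gained it in 3 and reversed in 1, the IAP1-MM_I-int sum in CBA against the repeat set for copies outside exons (0.28). Counts of called members changed as follows, and the cause was not tested. They stand without the share of all copies called under the same setting, so they do not show whether the members differ from the rest. F2 against F0 gave 1 with TMM scaling, with no filter and with DESeq2. N2.1 against F2 gave 11 with a pseudocount of 5 and with no filter, and 3 with a mean of at least 20. N2.3 against N2.1 gave 4 with a pseudocount of 5 and with no filter, 0 with a mean of at least 20 and 2 with edgeR. Balb/c-1 against N2.3 gave 7 with no filter, edgeR and DESeq2. Balb/c-2 against Balb/c-1 gave 3 with no filter. CBA against the repeat set gave 4 with TMM scaling, 1 with no filter and with edgeR, and 0 with the intron share as a covariate, and CBA against YUMM1.7 cells gave 9 with that covariate. Leaving out each library in turn gave 0 to 1 calls in F0 against YUMM1.7 cells, 0 to 2 in F2 against F0, 5 to 11 in N2.1 against F2, 1 to 2 in N2.3 against N2.1, 1 to 4 in Balb/c-1 against N2.3, 0 to 1 in Balb/c-2 against Balb/c-1, 0 to 0 in the repeat set against Balb/c-2, 0 to 2 in CBA against the repeat set and 12 to 16 in CBA against YUMM1.7 cells. The largest counts came without F0 A (2 in F2 against F0) and without N2.1 B (11 in N2.1 against F2), and the lowest in Balb/c-1 against N2.3 without N2.3 B (1). With the replicate block for the same tumours, the repeat set against Balb/c-2 gave 0 calls, as without it, and the block changed no other call. Low copies are limited by depth, since 1 read is worth 0.659 to 1.51 units.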
